A study of Homo sapiens with 12 samples.

Results

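The window of chromosome 8 that holds MYC, PVT1 and the gene-poor DNA before them, known for prostate cancer risk, contained 73 of the 49496 regions in 3 deposited lists of chromatin accessibility by ATAC-seq. Members were all listed regions that overlapped positions 126500000 to 129500000 (hg38), in band 8q24, by at least 1 bp. They were 28 of the 25317 enzalutamide regions, 35 of the 17931 OSU-ERb-12 regions and 10 of the 6248 regions listed for both agents together, called the combination list here. Membership rests on position alone, so the number of members was counted and not set. The window itself was chosen with earlier results of these data known.

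22Rv1 cells, a long-established human line from prostate cancer, were used throughout and are labelled WT for genotype. In ATAC-seq a transposase cuts and tags open DNA, and the lists were made from the nucleosome-free fraction of the fragments. The 12 samples formed 4 groups, each with 3 samples. These received vehicle, enzalutamide (an antiandrogen) at 1 µM, OSU-ERb-12 (a ligand of oestrogen receptor beta) at 100 nM, and both drugs together. Treatment lasted 6 h. The labels of the last group give no doses of their own. Each treatment has 1 set of positions, without a measurement for any library or region. Vehicle is taken to be the reference of each list, although no source used here describes the comparison or says whether accessibility at a listed region was higher or lower. The names of all 3 lists carry the tag neg, which no source used here defines. If it marks a direction, each list would hold changes of 1 direction, and every count below would cover those alone; no direction was assigned. Results are therefore positions and counts without replicate error, 95% intervals cover the counting of regions only, and DNA outside the lists is not shown to be unchanged. The depth of the libraries is unknown.

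MYC encodes a transcription factor that drives growth and cell division, and it is one of the genes most often gained in advanced prostate cancer. Its control DNA lies far from the gene on both sides, in the gene desert before it and in the body of PVT1 after it. PVT1 is a long non-coding RNA gene whose promoter is known to compete with that of MYC for enhancers. The desert also carries other long non-coding RNA genes, among them PCAT1, CCAT1 and CASC8, and the prostate and colorectal cancer risk intervals studied as distant enhancers of MYC. MYC and PVT1 are both transcribed towards higher coordinates, so the start of each is its lower coordinate.

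MYC (127735434 to 127742951) had 3 enzalutamide regions at its start, 1 of them also a combination region, and no OSU-ERb-12 region in its body. The first enzalutamide region, at 127735001 to 127735200, ended 234 bp before the start of the gene. The second, at 127735751 to 127735950, began 317 bp inside the gene. This is the region with the same boundaries in the combination list, where it was the only region in MYC with its 10 kb flanks. The third, at 127736901 to 127737150, began 1467 bp inside the gene. Gaps of 551 bp and 951 bp separated these 3, and they made up 2 of the 3 neighbouring pairs of enzalutamide regions within 5 kb of each other in the window. None lay near the other end of the gene, whose nearest enzalutamide region was the third, 5801 bp away. Exon and intron boundaries are not in the annotation used here.

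The OSU-ERb-12 region nearest to MYC spanned 127752901 to 127753200, 9950 bp after the end of the gene. It straddled the edge of the 10 kb flank, so it counts for MYC by overlap of 1 bp and not by its midpoint. On the other side the nearest was at 127696351 to 127696600, 38.8 kb before MYC and 4008 bp before CASC11, the long non-coding RNA gene next to MYC. Between these the OSU-ERb-12 list had no region, and the 3 enzalutamide regions lay in that interval. The median gap between neighbouring OSU-ERb-12 regions of the window was 39.1 kb, so nothing is read from this absence. Within 10 kb CASC11 had the same 3 enzalutamide regions, the same combination region and 1 OSU-ERb-12 region. The regions at the MYC start thus fall in the loci of both genes. Further before MYC, LOC105375754 had 1 OSU-ERb-12 region, 1330 bp outside it. Among all 20037 protein-coding genes, 13.6% held at least as many enzalutamide regions as MYC within the gene body and 10 kb on either side. Among the 5080 whose length was within 5000 bp of that of MYC, 7.13% did. A single combination region or more was present at 21.7% of protein-coding genes, and an OSU-ERb-12 region at 39.1%. Among the 5080 genes of like length these shares were 16.2% and 27.6%.

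**Figure D1:**
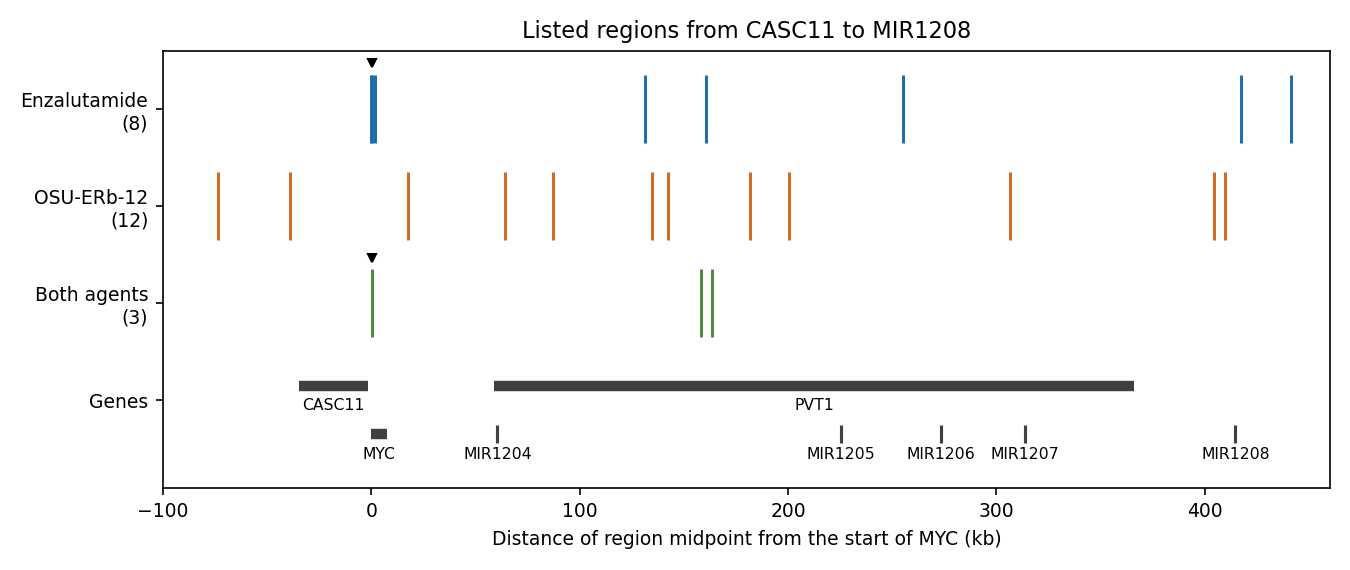
Each vertical line is a listed region, placed by the distance of its midpoint from the start of MYC (kb), with 1 row per treatment and the number of regions drawn in brackets; black triangles mark regions that overlap a region of another list, and bars or ticks at the bottom are genes. The 3 enzalutamide regions of MYC merge at 0 kb above the single combination region, while OSU-ERb-12 regions are spread over PVT1.

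PVT1 (127794524 to 128101256, 306.7 kb) showed another order of treatments, with 7 OSU-ERb-12, 3 enzalutamide and 2 combination regions in its body. None of these overlapped a region of another list, which also held for 88.3%, 90.9% and 75.2% of the whole lists in that order. The first OSU-ERb-12 region in the gene, at 127799601 to 127799850, lay 5077 bp after its start and 3573 bp from MIR1204, a microRNA gene hosted by PVT1. No enzalutamide or combination region lay near the PVT1 start. The nearest were those in MYC, 57.4 kb and 58.6 kb away.

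Further into PVT1, an enzalutamide region at 127866901 to 127867100 and an OSU-ERb-12 region at 127869801 to 127870150 were 2701 bp apart. Both combination regions of the gene (127893801 to 127894000 and 127898651 to 127899000) flanked the enzalutamide region at 127896051 to 127896250, at 2051 bp and 2401 bp. These 3 regions spanned 5.2 kb, with the middle one at 33.1% of the length of the gene, and the nearest OSU-ERb-12 region was 15.7 kb from them. The last OSU-ERb-12 region of the body, at 128041751 to 128041950, was 7202 bp from MIR1207, another microRNA gene of the locus. At MIR1208, after the annotated end of PVT1, enzalutamide and OSU-ERb-12 regions lay 2563 bp and 5066 bp away, and the nearest combination region 230.4 kb away.

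As a density, the 7 OSU-ERb-12 regions came to 22.8 per Mb of PVT1 (Poisson 95% interval 9.18 to 47.0), against 9.58 per Mb on the rest of chromosome 8. The 3 enzalutamide regions gave 9.78 per Mb (2.02 to 28.6) against 9.40, and the 2 combination regions 6.52 (0.790 to 23.6) against 2.86. Each interval holds the level of the rest of the chromosome, and the difference between the treatments in PVT1 was not tested.

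The DNA before MYC, from the window's lower edge to 10 kb before the gene (1225.4 kb), held most of the members: 16 enzalutamide, 19 OSU-ERb-12 and 5 combination regions. Their densities were 13.1 (7.46 to 21.2), 15.5 (9.33 to 24.2) and 4.08 (1.32 to 9.52) per Mb, each with an interval that includes the rest of chromosome 8. After PVT1, 1398.7 kb held 6, 8 and 2 regions in the same order. There the densities were 4.29 (1.57 to 9.34), 5.72 (2.47 to 11.3) and 1.43 (0.173 to 5.17) per Mb. Of these, only the enzalutamide interval ended below its level on the rest of the chromosome, 9.40. In MYC with its 10 kb flanks (27.5 kb), the 3 enzalutamide regions gave 109 per Mb (22.5 to 319), an interval above 9.40. They lay close together, and 7.13% of protein-coding genes of like length held at least as many. The other intervals of the shorter segments included the level of the rest of the chromosome. In all 3 lists the density before MYC exceeded that after PVT1. One cell line and possibly the same vehicle libraries lie behind all 3 lists, so they are not independent observations.

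**Figure D2:**
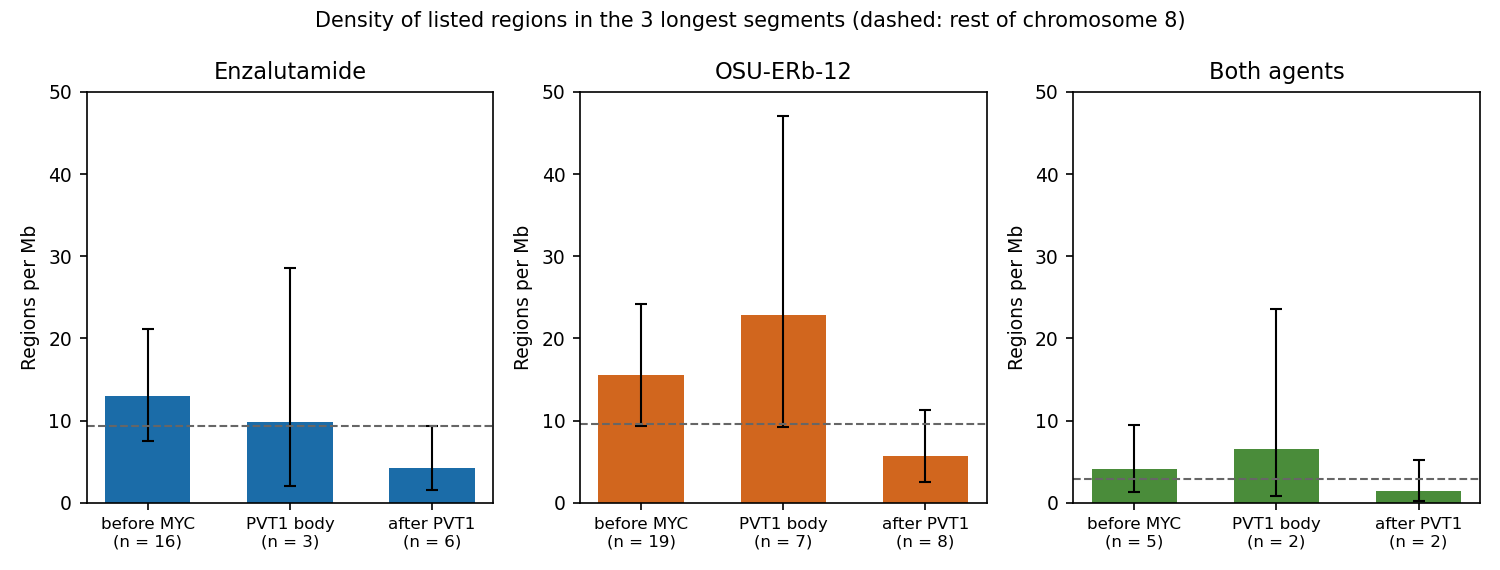
Bars give listed regions per Mb in the 3 longest segments of the window, 1 panel per treatment, with n the number of regions, error bars the exact Poisson 95% interval and the dashed line the rest of chromosome 8. Density after PVT1 is the lowest of the 3 segments for each treatment, and only the enzalutamide bar there (4.29) has an interval below the dashed line.

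The counts along the window are given next by stretch, with no test of a difference between stretches or treatments. These stretches, of unequal length, were not among the segments planned in advance. In the first 500 kb of the window, around LRATD2, a protein-coding gene, and the long predicted gene LOC105375751, there were 7 enzalutamide, 2 OSU-ERb-12 and 2 combination regions. The central 1 Mb (127000001 to 128000000), from PCAT1 into PVT1, held 15, 24 and 6. These 45 regions are 61.6% of the members in 33.3% of the window. The next 500 kb held 4, 4 and 1, and the last 1 Mb held 2, 5 and 1. There the longest stretch without a region of any list, 391.8 kb, ran from the enzalutamide region at 128540301 to 128540600 in LINC00824 to the OSU-ERb-12 region at 128932351 to 128932600. Of the OSU-ERb-12 regions 22 of 35 lay within 500 kb of MYC, as did 12 of 28 enzalutamide and 6 of 10 combination regions. The median distance from the gene was 320 kb, 524 kb and 276 kb in that order. Shares expected from the length of DNA at each distance were not computed, so no gathering of a list near MYC is read from these values.

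**Figure D3:**
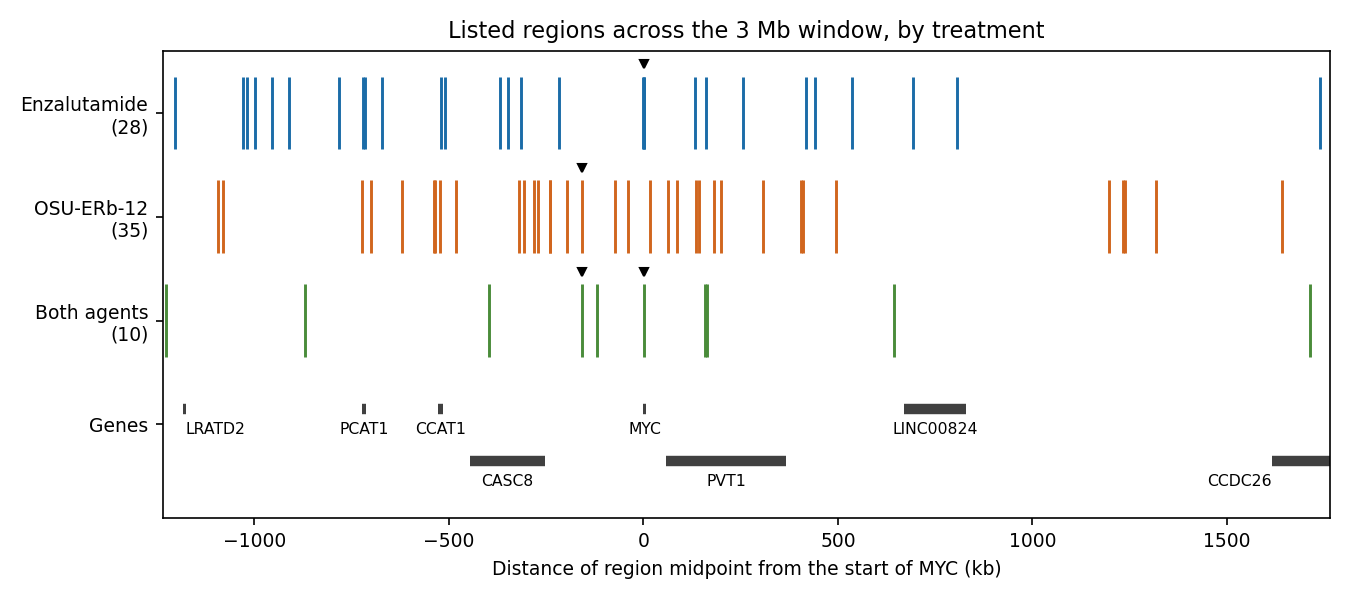
The 73 listed regions are drawn as vertical lines at the distance of their midpoint from the start of MYC (kb), with 1 row per treatment and selected genes as bars; black triangles mark regions that overlap another list. Enzalutamide regions outnumber OSU-ERb-12 regions 7 to 2 in the first 500 kb, and all rows thin out after PVT1.

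Of the 28 enzalutamide members 3 (10.7%, exact 95% interval 2.27 to 28.2) lay within 5 kb of an OSU-ERb-12 region, at PCAT1, CCAT1 and, as given above, PVT1, and none of these pairs overlapped. The share was 17.4% on the rest of chromosome 8 and 16.4% over the whole enzalutamide list, both inside the interval. PCAT1, named for its expression in prostate cancer, held 2 enzalutamide regions in its body, at 127014801 to 127015050 and 127018901 to 127019250. An OSU-ERb-12 region at 127010551 to 127010750 lay just outside PCAT1, 4051 bp from the first of them. The first region was 250 bp wide and the second 350 bp. In CCAT1, a colon cancer associated transcript, the OSU-ERb-12 region at 127212901 to 127213100 and the enzalutamide region at 127214901 to 127215150 were 1801 bp apart, the shortest distance between these lists in the window. CASC19 had 2 OSU-ERb-12 regions within 10 kb and no enzalutamide region, and CCAT2, PCAT2 and PRNCR1 had no region of any list.

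CASC8, which spans POU5F1B, a retrogene related to the stem cell factor OCT4, held 4 OSU-ERb-12 regions, 3 enzalutamide regions and 1 combination region. The OSU-ERb-12 region at 127414701 to 127414950 lay inside POU5F1B, and the nearest enzalutamide region was 3627 bp outside it. LRATD2, the third protein-coding gene of the window, had none within 10 kb: the nearest were 21.8 kb away for enzalutamide, 43.7 kb for the combination and 83.7 kb for OSU-ERb-12. The widest member of the window was the enzalutamide region of 550 bp at 126951351 to 126951900, inside LOC105375751. That predicted gene covers 463.2 kb and held 8 enzalutamide, 3 OSU-ERb-12 and 1 combination regions, the enzalutamide regions of PCAT1 included, because the genes overlap. LOC105375753, which lies inside it, held 2 of these enzalutamide regions. LOC105375750, at the lower edge of the window, held 1 combination region, which was also within 10 kb of the pseudogene RNU6-869P, and had 1 enzalutamide region 8041 bp outside. CASC21, which overlaps CASC8, held 2 enzalutamide regions, 1 OSU-ERb-12 region and 1 combination region, and in PVT1 the pseudogene RNVU1-32 had 1 enzalutamide region within 10 kb. The widest OSU-ERb-12 members, of 350 bp, were at 127115451 to 127115800, 22856 bp outside PRNCR1, and at 127869801 to 127870150 in PVT1, and the widest combination member, also of 350 bp, was the second of the PVT1 pair.

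Beyond PVT1 the members belonged to fewer genes. The predicted gene LOC124902020 held 2 enzalutamide regions, LINC00824 held 2, and LINC00976 had 2 OSU-ERb-12 regions within 10 kb, 2000 bp and 8500 bp outside it. CCDC26, which runs past the window's edge, had 1 region of each list inside the window. The enzalutamide region there lay 7957 bp from the microRNA gene MIR3686.

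Counted by gene, 23 of the 41 annotated genes of the window had a region of some list in the body or within 10 kb, and 18 had none. Enzalutamide regions occurred at 17 of the 41 (41.5%), against 36.1% of the 2407 annotated genes on the rest of chromosome 8. An OSU-ERb-12 region was also present at 17 (41.5%, against 34.2%), and a combination region at 9 (22.0%, against 16.2%). These shares are near the background, and neighbouring genes share regions. Of the 41 genes, 3 encode proteins, 24 are long non-coding RNA genes, 6 are microRNA genes and 8 are pseudogenes.

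Gene bodies of any kind held 22 of 28 enzalutamide members (78.6%, exact Clopper-Pearson 95% interval 59.0 to 91.7), 18 of 35 OSU-ERb-12 members (51.4%, 34.0 to 68.6) and 7 of 10 combination members. On the rest of chromosome 8 the shares were 62.9%, 60.0% and 58.9%. Within 1 kb of an end of a protein-coding gene lay 2 enzalutamide members and 1 combination member, all at the MYC start, and no OSU-ERb-12 member of 35 (interval 0 to 10.0%). The shares on the rest of the chromosome were 12.1% for enzalutamide, 8.87% for the combination and 3.09% for OSU-ERb-12, each inside the interval of the members.

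Regions of different lists coincided at 2 places, and 69 of the 73 members were in a single list. Members in no other list were 27 of 28 for enzalutamide (96.4%, against 90.9% of its whole list), 34 of 35 for OSU-ERb-12 (97.1%, against 88.3%) and 8 of 10 for the combination (80.0%, against 75.2%), so each share is near its background. The first place was the MYC region already described. The second lay in the desert 156.9 kb before MYC, where the combination region at 127578301 to 127578500 was contained in the OSU-ERb-12 region at 127578251 to 127578500. This place was far from annotated genes, 84.8 kb from LOC105375754. No place was in all 3 lists, but the share of such places over the whole lists was not computed, so nothing is read from this.

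None of the 35 OSU-ERb-12 members overlapped an enzalutamide region (interval 0 to 10.0%), against 8.72% of the whole OSU-ERb-12 list and 5.66% on the rest of chromosome 8. Seen from enzalutamide it was 0 of 28 (0 to 12.3%), against 6.17% of its whole list. These counts are too small to set the window apart from the background. The combination shared 1 of its 10 members with enzalutamide, against 16.3% of the whole list, and 1 with OSU-ERb-12, against 12.7%. From the other side, these are 1 of 28 enzalutamide members (4.02% of the whole list overlapped a combination region) and 1 of 35 OSU-ERb-12 members (4.43%).

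The window as a whole was close to the rest of chromosome 8. Enzalutamide regions numbered 9.33 per Mb (Poisson 95% interval 6.20 to 13.5), a ratio of 0.992 to the rest of the chromosome (0.659 to 1.43). The ratio was 1.22 (0.848 to 1.69) for OSU-ERb-12, at 11.7 per Mb, and 1.17 (0.559 to 2.14) for the combination, at 3.33 per Mb. Of 47 other windows of 3 Mb on the chromosome, 21 held more enzalutamide regions, 13 more OSU-ERb-12 regions and 15 more combination regions. Chromosome 8 itself was denser than the other autosomes, 1.10 times for enzalutamide, 1.60 times for OSU-ERb-12 and 1.36 times for the combination. In the window there were 1.25 OSU-ERb-12 regions per enzalutamide region, against 1.02 on the rest of chromosome 8 and 0.708 over the whole lists. The order of the treatments here, with more OSU-ERb-12 than enzalutamide regions, was thus also that of the rest of the chromosome.

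**Figure D4:**
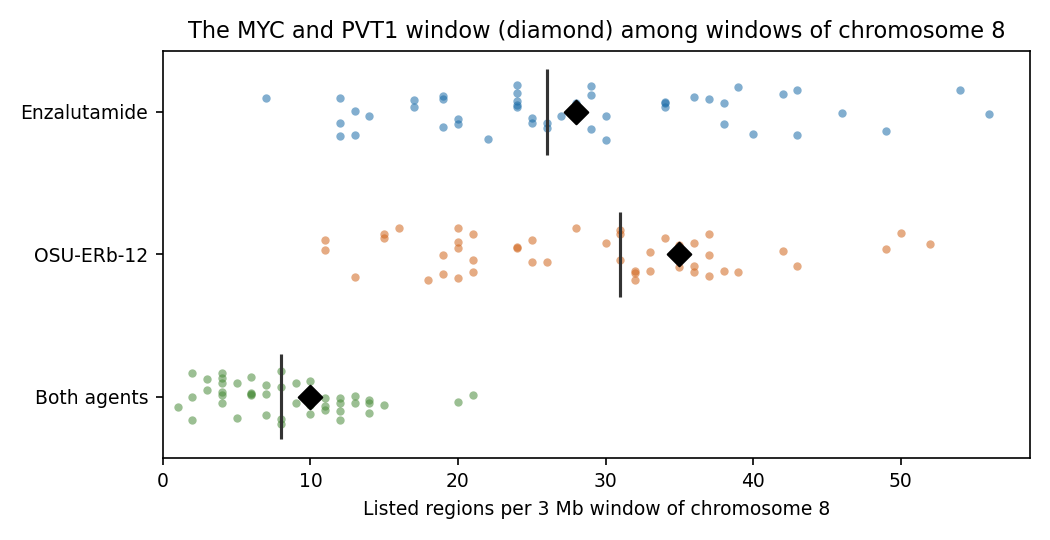
Points are windows of 3 Mb along chromosome 8, placed by their number of listed regions, with 1 row per treatment and points spread vertically at random for legibility; the diamond is the MYC and PVT1 window and the vertical line the median of the 47 others. The diamonds, at 28, 35 and 10, sit a little above the medians of 26, 31 and 8.

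Genes whose products work with MYC were examined from a fixed list of 25: its partner MAX, the antagonists of the MXD family, related factors, cofactors, and enzymes that set its stability. An enzalutamide region lay in the body or within 10 kb of 18 of the 25 (72.0%, against 58.3% of all protein-coding genes), an OSU-ERb-12 region of 20 (80.0%, against 39.1%) and a combination region of 7 (28.0%, against 21.7%). The median number of regions per gene was 1 for enzalutamide, as over all protein-coding genes, 1 for OSU-ERb-12 (0 over all genes) and 0 for the combination (0 over all genes). The network genes were longer, with a median of 34.2 kb against 24.1 kb, and the part of length in these shares was not tested. With gene bodies alone the OSU-ERb-12 count was 10 of 25 against 26.8% of all genes. With 50 kb on either side it stayed at 20 of 25, while the share of all genes was 63.8%, inside the OSU-ERb-12 interval of 59.3 to 93.2.

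MXI1, a MYC antagonist, had most regions of the list, with 7 for enzalutamide, 1 for OSU-ERb-12 and none for the combination. The cofactor gene TRRAP and the helicase gene RUVBL1 each had 4 OSU-ERb-12 regions, beside 2 and 1 for enzalutamide and 1 and 2 for the combination. MAX had 1, 1 and 2 regions in the order enzalutamide, OSU-ERb-12, combination. The antagonist MXD3 had 3 enzalutamide regions and 1 OSU-ERb-12 region, and ZBTB17, which encodes the MYC-binding factor MIZ1, had 2 of each. The histone-methylation cofactor WDR5 and the elongation kinase gene CDK9 each had 2, 1 and 1. MLX and SKP2 had none.

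Of the 9 combination regions at these genes 3 overlapped an enzalutamide region, against 16.3% of the whole combination list, and these 3 lay within 200 bp of an end of the gene. Of all 1017 combination regions that overlapped an enzalutamide region, 19.2% lay that close to an end of a protein-coding gene. With 3 regions, picked out after they were seen, nothing is read from this about the network genes. The shared region of MYC began 317 bp from the start of that gene. The genes, chosen for mention after their values were seen, were CDK9, FBXW7, which encodes the ubiquitin ligase subunit that marks MYC for degradation, and AURKA, a mitotic kinase gene. The CDK9 combination region (chromosome 9, 127785501 to 127785850) ended 184 bp short of the gene. That of FBXW7 (chromosome 4, 152535801 to 152536000) ended 92 bp inside it, and that of AURKA (chromosome 20, 56392401 to 56392600) began 186 bp beyond it. At MAX 1 combination region, 656 bp outside the gene, overlapped an OSU-ERb-12 region instead.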

How the data were processed

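The deposited lists hold chromosome, start and end of each region on hg38, the build named in the submitters' processing notes beside FastQC and Trimmomatic. Per the labels' protocols, ATACSeqQC was used to separate nucleosome-free reads. Not given in the sources used here are the peak caller and threshold, the statistical comparison, its direction and any pooling of replicates. The score deposited by the authors is 0 in every row and was not used. Boundaries lie on a 50 bp grid and the shortest region is 200 bp. Each list was matched to its treatment by the prefix it shares with sample titles, which for OSU-ERb-12 is WT, a prefix the labels do not explain.

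Gene positions are those of RefSeq for GRCh38.p14. Coordinates are 1-based, distances run between nearest bases, and a locus is a gene body plus 10 kb at each side. Segments took regions by midpoint. Counts were made with Python 3.11.15, pandas 2.3.3 and scipy 1.17.1. Counting procedures were tested on simulated data with known answers. Chromosome lengths were approximated by the last gene or region. No test was run: intervals are exact Poisson or Clopper-Pearson at 95%, and each treatment has 1 list.

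The members and gene lists were chosen with earlier results of these data known. Named were genes of the window whose locus held a region and, of those without, LRATD2 and a few known non-coding RNA genes of the desert, up to 10 of the MYC network by number of regions (8 are given, since others tied and 1 is not reported here), and regions shared, at MYC, nearest to the gene ends, widest or beside the longest empty stretch.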

Additional observations from a re-analysis of the deposited data

How the results depend on the processing

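The 27 counts and ratios were recomputed under 81 alternatives, of which 70 stayed within 1.5 times the count, or within the counting interval of the ratio. Some could not move, since the size of the MYC flank does not enter the counts in the PVT1 body or after PVT1. Counting only regions wider than 200 bp left 10 enzalutamide, 16 OSU-ERb-12 and 5 combination regions in the window. Against the other autosomes the OSU-ERb-12 density ratio was 1.94. Counting a region in each segment it overlaps gave the MYC locus 1 OSU-ERb-12 region, and a flank of 50 kb gave it 2 and left 0 between MYC and PVT1. In the body alone, 11 of the 25 network genes had an enzalutamide region, against 41% of all protein-coding genes. An OSU-ERb-12 region was found there in 10, against 26.8%, and a combination region in 4, against 13.9%. With 50 kb on either side 13 network genes had a combination region, against 39.6% of all protein-coding genes. The comparison with 3 Mb on either side of the window, chosen after seeing the data, gave ratios of 0.778, 1.03 and 1.00 in the order enzalutamide, OSU-ERb-12, combination. No paired analysis was possible because the lists hold no value per library, and no replicate could be left out for the same reason. Small counts limit every comparison in the window.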
